A study of Homo sapiens with 8 samples.

Results

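The genes described here encode shared core and accessory subunits of the SWI/SNF chromatin remodelling complexes, other than the catalytic ATPases. They were taken by symbol from the count tables of a comparison of H2122 tumours with and without SMARCA4, one of those ATPases. Of 10 genes on the list, 9 were found among the 59050 gene symbols of each table: SMARCB1, SMARCC1, SMARCC2, SMARCD1, SMARCD2, SMARCD3, SMARCE1, ACTL6A and BCL7A. SS18 is not analysed here. All 9 passed the filter on low counts.

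H2122 is an established human lung cancer cell line, here grown as xenografts, that is, as tumours in a host animal. RNA sequencing covered 4 tumours of the parental line, labelled wild type for SMARCA4, and 4 tumours of its SMARCA4 knockout derivative. All 8 tumours had received vehicle only. The labels say neither whether the knockout line is 1 clone nor whether each tumour came from its own animal, so p-values measure the spread between these tumours. Gene counts ran from 19785922 to 23191698 per library. Levels are given in CPM, the read count scaled to a common library size. The targeted gene SMARCA4 lay at 198 to 235 CPM in parental and 22.3 to 31.1 CPM in knockout tumours, and edgeR put its log2 fold change at -3.02 (SE 0.117, adjusted p = 1.45e-07). All 6 epithelial marker genes were present at a summed 5756 to 6929 CPM in parental and 4634 to 6237 CPM in knockout tumours, and 2 of the 6 were called lower. Each marker gene of 4 other lists was above 0 in at least 1 library. Many of these were too low to test. Of 4 fibroblast markers tested, 1 was called higher. Of 2 endothelial markers tested, 1 was called lower, as was the 1 muscle marker tested, and 0 of 5 leukocyte markers were called. Over all genes tested, 27.0% were called. In parental and knockout tumours, respectively, fibroblast markers summed to 179 to 607 and 343 to 603 CPM, leukocyte markers to 6.85 to 42.5 and 7.84 to 16.6 CPM, and endothelial markers to 7.25 to 18.0 and 8.68 to 15.2 CPM. The part of host cells in the results below was not tested, and in bulk tissue fewer cells of a type and less RNA per cell cannot be told apart.

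SWI/SNF complexes use the energy of ATP to slide or eject nucleosomes, which opens enhancers and promoters to transcription factors. Each complex holds 1 ATPase, SMARCA4 or SMARCA2, on a scaffold that is built from a dimer of SMARCC1 and SMARCC2 proteins and 1 of the alternative SMARCD proteins, joined in the BAF and PBAF forms by SMARCB1 and SMARCE1. Paralogs take the same position in the assembly, so the choice among SMARCC and SMARCD genes is one of the ways in which cells build different complexes.

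The SMARCD genes are the family whose ratios passed the test described below, and the windows around their first listed start sites are shown because the 3 genes fill the same position while their transcript levels differed. Each window runs from 250 bases before to 50 bases after a start, 5′ to 3′ on the gene's strand, from RefSeq on GRCh38.p14. Capitals mark the GC box GGGCGG, bound by SP-type factors, and the letters AAGATGG, part of the site known for the factor YY1, on either strand.
SMARCD1, chr12:50085092-50085391, plus strand: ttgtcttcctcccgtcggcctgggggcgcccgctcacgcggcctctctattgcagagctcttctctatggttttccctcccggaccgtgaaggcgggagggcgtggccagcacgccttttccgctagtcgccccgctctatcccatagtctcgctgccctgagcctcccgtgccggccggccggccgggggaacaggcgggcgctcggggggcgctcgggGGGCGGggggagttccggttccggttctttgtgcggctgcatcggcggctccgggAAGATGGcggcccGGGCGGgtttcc
SMARCD2, chr17:63842636-63842935, minus strand: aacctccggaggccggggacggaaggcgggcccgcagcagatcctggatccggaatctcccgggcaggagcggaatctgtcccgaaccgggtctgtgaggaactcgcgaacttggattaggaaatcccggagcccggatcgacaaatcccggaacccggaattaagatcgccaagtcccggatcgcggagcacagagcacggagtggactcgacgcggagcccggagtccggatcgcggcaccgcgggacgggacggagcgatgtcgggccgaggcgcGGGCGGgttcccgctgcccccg
SMARCD3, chr7:151277100-151277399, minus strand: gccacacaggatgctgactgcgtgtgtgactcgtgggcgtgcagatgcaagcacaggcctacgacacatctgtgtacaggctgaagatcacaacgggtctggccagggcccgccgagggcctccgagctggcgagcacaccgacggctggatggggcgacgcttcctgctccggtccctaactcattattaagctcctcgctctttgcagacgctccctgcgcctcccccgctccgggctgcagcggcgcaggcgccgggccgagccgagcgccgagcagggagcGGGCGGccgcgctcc
All 3 windows held a GC box, as did 44.9% of 34943 promoter windows of the same length. Only the SMARCD1 window of these 3 held AAGATGG, found in 5.85% of all windows, and none of the 3 held the ETS core CCGGAAG, found in 10.2%. The G and C content was 71.3% for SMARCD1, 68.3% for SMARCD2 and 68.7% for SMARCD3, against a median of 58.7% over all windows. A match is a description of the letters and says nothing about binding. SMARCD2 and SMARCD3 have 3 listed starts each, and the one in use in these tumours was not measured. Of the windows not shown, the last of SMARCD2 (57.0% G and C) and the middle one of SMARCD3 (66.0%) held 0 GC boxes, and the other 2 held 2 each. Windows were listed for 6 of the 9 genes.

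Of the 9 genes, 4 were lower in knockout tumours by edgeR's quasi-likelihood test at an adjusted p under 0.05 (SMARCD2, ACTL6A, SMARCC1 and SMARCB1), and 0 were higher. Over all 16219 genes tested, 27.0% were called, 14.1% as lower and 13.0% as higher, so calls were common in this comparison. The median log2 fold change of the 9 was -0.09, against 0.00345 over all genes tested, and their median absolute change was 0.24, against 0.25. At an unadjusted p under 0.05 there were 5 of the 9, SMARCD3 being the other, and 6170 of all 16219 genes tested. All changes of the 9 were small beside that of SMARCA4, the largest being 0.49 on the log2 scale in either direction. Groups did not overlap for 3 of the 9, all lower in knockout tumours (SMARCB1, SMARCC1 and SMARCD2), a separation seen in 29.3% of all genes tested, 15.3% with lower and 14.0% with higher knockout values. For each of these 3 the exact two-sided permutation p was 0.0286, the smallest that 4 tumours against 4 can give. Any gene without overlap has this p, so it adds nothing to the separation itself. The number of called genes among the 9 was 2 without parental replicate 1, parental replicate 4 or knockout replicate 3, and 1 without knockout replicate 1. SMARCD2 alone of the 9 was called in each fit that left out 1 tumour.

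**Figure D1:**
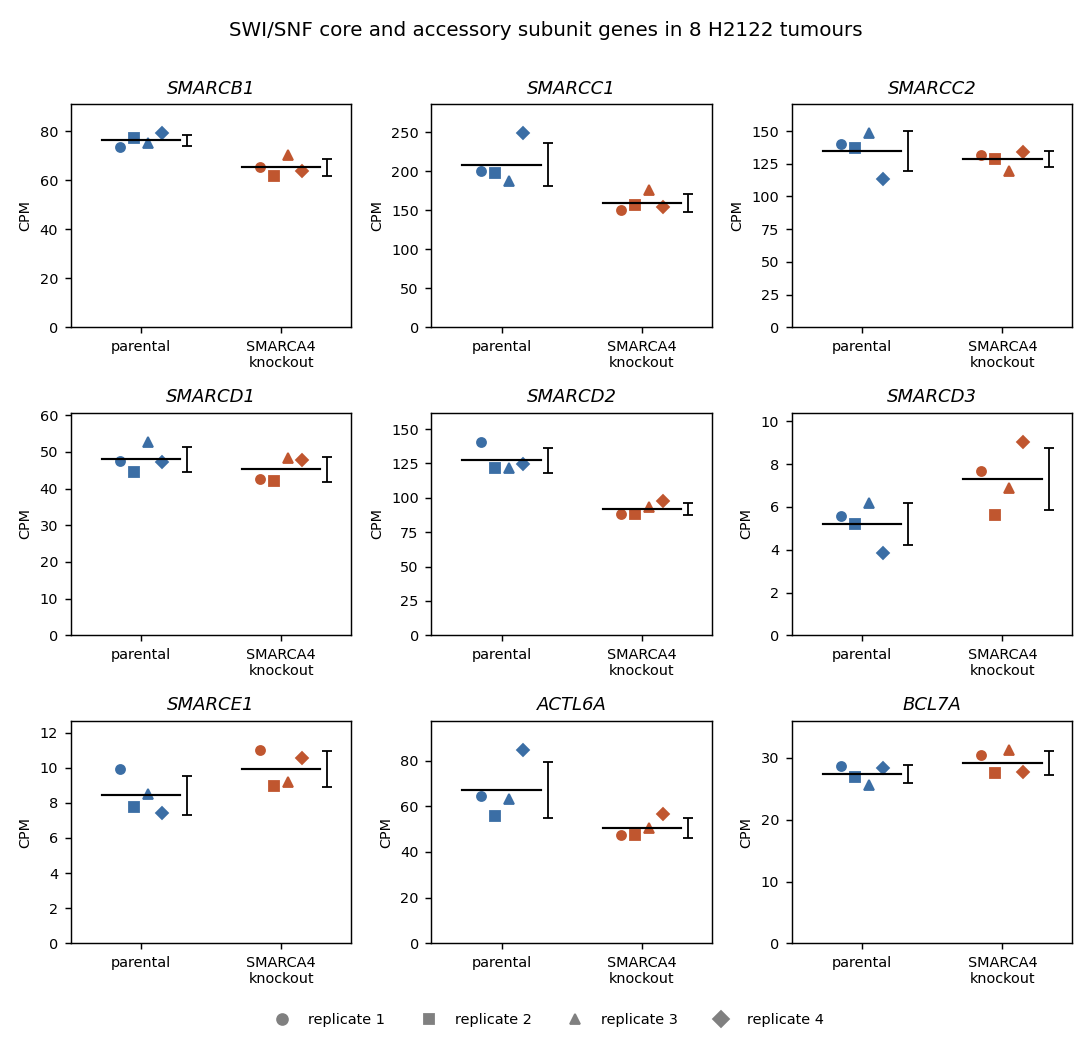
CPM (vertical axis, from 0) of the 9 subunit genes in the 4 parental (blue) and 4 SMARCA4 knockout (orange) tumours; symbols mark the replicate number, lines the mean and bars the SD. The 4 knockout values lie below all parental values for SMARCB1, SMARCC1 and SMARCD2, and parental replicate 4 stands highest for SMARCC1 and ACTL6A.

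SMARCB1 encodes the core subunit that contacts the nucleosome's acidic patch and is lost in rhabdoid tumours (ENSG00000099956, chromosome 22, 23786931 to 23838008, plus strand; positions here are from GENCODE 29 on GRCh38). Its parental values were 73.5, 77.1, 75.3 and 79.1 CPM in replicates 1 to 4, and its knockout values 65.4, 61.7, 70.1 and 64.0 CPM. The knockout tumours lay together below the parental ones with a narrow gap. The log2 fold change was -0.22 (SE 0.0753, 95% interval -0.39 to -0.06, edgeR adjusted p = 0.0474), a level at 85.6% of that in parental tumours. The call was lost in each of the 8 fits that left out 1 tumour, with adjusted p-values of 0.0556 to 0.137, and with upper-quartile scaling (0.0862), without a filter on low counts (0.116) and with the replicate number as a block (0.0945). Exons of DERL3 on the opposite strand cover 56.1% of the longest principal SMARCB1 transcript. Whether the counting used strand is not given in the sources used here, so reads of the 2 genes may not be told apart there.

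SMARCE1 encodes a DNA-binding core subunit with an HMG box that is found in BAF and PBAF (chromosome 17, 40624962 to 40648864, minus strand). It was counted at 9.94, 7.76, 8.53 and 7.44 CPM in parental replicates 1 to 4 and at 11.03, 8.97, 9.19 and 10.6 CPM in knockout replicates 1 to 4. The groups overlapped, and the log2 fold change was 0.24 (95% interval -0.06 to 0.54, edgeR adjusted p = 0.222). These are 159 to 236 reads per library. In the annotation, 59.7% of the exon bases of its longest principal transcript also belong to other genes. The main one is AC073508.2, annotated on the same strand, which was itself at 0 to 0.280 CPM. A read that lies in exons of both genes is set aside as ambiguous in the default mode of htseq-count. The mode used is not given in the sources used here, the number of SMARCE1 reads set aside was not tested, and no order against other genes is drawn from its level. Annotated SMARCE1 pseudogenes share few sequences with it: the one with most, SMARCE1P5, held 0.556% of its distinct words of 50 bases.

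ACTL6A encodes an actin-related subunit that is replaced by ACTL6B in neurons (ENSG00000136518, chromosome 3, 179562880 to 179588408, plus strand). Parental replicates 1 to 4 held 64.7, 55.8, 63.4 and 84.7 CPM, and knockout replicates 1 to 4 held 47.4, 47.4, 50.7 and 56.8 CPM. Knockout replicate 4 lay above parental replicate 2, so the groups touched, and parental replicate 4 was far the highest. The log2 fold change was -0.41 (SE 0.125, 95% interval -0.68 to -0.13, edgeR adjusted p = 0.0318). The fit without parental replicate 4 gave -0.28 (adjusted p = 0.0541), and the call was also lost without parental replicate 1 (0.0531) and knockout replicates 1 (0.0904), 2 (0.0897) or 3 (0.0733). ACTL6B, its neuronal counterpart, had 0 reads in the parental and 2 in the knockout libraries in all.

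BCL7A encodes an accessory subunit that is mutated in lymphomas (chromosome 12, 122019422 to 122062044, plus strand). It was at 28.7, 26.9, 25.5 and 28.4 CPM in parental and 30.4, 27.5, 31.3 and 27.7 CPM in knockout replicates 1 to 4. The groups overlapped (log2 fold change 0.09, 95% interval -0.10 to 0.29, edgeR adjusted p = 0.466). Its paralogs did not pass the threshold either: BCL7B had a log2 fold change of 0.02 (95% interval -0.15 to 0.20, adjusted p = 0.873), and BCL7C one of -0.30 (-0.55 to -0.04, adjusted p = 0.0799). The sign for BCL7B turned without a filter on low counts (-0.0015) and without parental replicate 1 (-0.00016) or 2 (-0.011). As a description, the ratio of BCL7A to BCL7C reads was 1.01 to 1.19 in parental and 1.21 to 1.59 in knockout tumours, while that of BCL7A to BCL7B was 0.485 to 0.570 and 0.511 to 0.615.

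The SMARCC family was then compared. SMARCC1 and SMARCC2 encode the scaffold proteins on which the core assembles and which protect other subunits from degradation. SMARCC1 (ENSG00000173473, chromosome 3, 47585272 to 47782106, minus strand) was at 200.1, 197, 188 and 248 CPM in parental replicates 1 to 4 and at 151, 157, 176 and 154 CPM in knockout replicates 1 to 4. Every knockout tumour lay below every parental one, and parental replicate 4 stood above the rest. The log2 fold change was -0.39 (SE 0.102, 95% interval -0.61 to -0.16, edgeR adjusted p = 0.0157), a level at 76.5% of that in parental tumours. Leaving out parental replicate 4 gave -0.30 (adjusted p = 0.0235), and the call was lost without knockout replicate 1 (-0.36, adjusted p = 0.0535). SMARCC2 (ENSG00000139613, chromosome 12, 56162983 to 56189567, minus strand) was at 140, 137, 148 and 113 CPM in parental and 132, 129, 120 and 134 CPM in knockout replicates 1 to 4. Its groups overlapped widely, with parental replicate 4 the lowest of all 8 (log2 fold change -0.07, 95% interval -0.27 to 0.14, adjusted p = 0.654). The SMARCC2 value was -0.15 without parental replicate 4, -0.02 without parental replicate 3 and -0.03 without knockout replicate 3, and it was called in none of these.

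Balance within the family was measured as the ratio of SMARCC1 to SMARCC2 reads in each tumour, which no scaling of the library touches. Parental replicates 1 to 4 had ratios of 1.43, 1.44, 1.27 and 2.20, and knockout replicates 1 to 4 had ratios of 1.14, 1.22, 1.47 and 1.146. Knockout replicate 3 lay above 3 of the 4 parental tumours, so the groups overlapped, and parental replicate 4 lay far above all others. The log2 ratio averaged 0.63 ± 0.35 over parental and 0.31 ± 0.17 over knockout tumours (SD, n = 4 each), a difference of -0.32 that did not pass the exact two-sided permutation test (p = 0.114, and 0.114 after Benjamini-Hochberg adjustment over 4 ratios). Without parental replicate 4 the difference was -0.15. A shift between the 2 scaffold genes was therefore not shown, although SMARCC1 was called and SMARCC2 was not. Parental replicate 4 was the deepest library, with the highest share of reads assigned to genes (85.2%, against 79.1% to 83.0% in the other tumours) and the lowest fibroblast marker sum; the part of these in its values was not tested. No word of 50 bases occurs in transcripts of both genes, nor in any pair of SMARCD genes. Shorter or inexact matches were not tested.

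**Figure D2:**
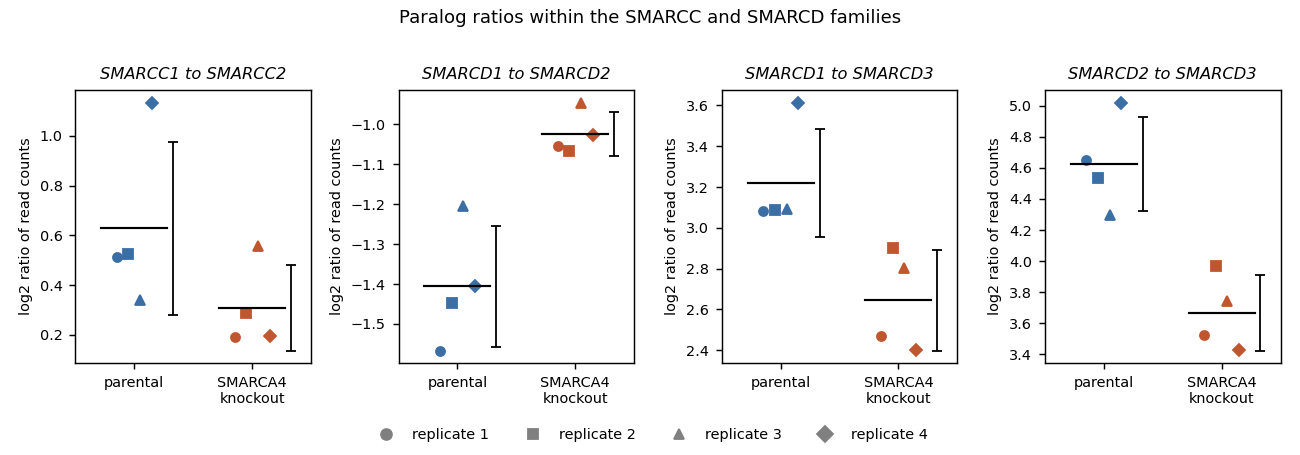
Log2 ratio of read counts within each tumour (vertical axes differ in range and do not start at 0) for the 4 pairs of paralogs; symbols mark replicates, lines the mean and bars the SD of 4 tumours. The groups overlap for SMARCC1 to SMARCC2 and are apart for the 3 SMARCD ratios.

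SMARCD genes encode the subunits that link the complex to transcription factors and nuclear receptors. SMARCD2, known for its role in granulocyte development (ENSG00000108604, chromosome 17, 63832081 to 63843065, minus strand), was at 141, 122, 122 and 125 CPM in parental replicates 1 to 4 and at 88.4, 88.2, 93.0 and 97.7 CPM in knockout replicates 1 to 4. The groups were far apart, and parental replicate 1 was the highest. The log2 fold change was -0.47 (SE 0.0811, 95% interval -0.65 to -0.29, edgeR adjusted p = 0.00133), a level at 72.1% of that in parental tumours. It ran from -0.50 to -0.43 over 16 other fits and was called in each, with the highest adjusted p at 0.0073.

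SMARCD1, the widely expressed paralog (ENSG00000066117, chromosome 12, 50084972 to 50100712, plus strand), was at 47.5, 44.6, 52.8 and 47.1 CPM in parental and 42.6, 42.1, 48.3 and 47.9 CPM in knockout replicates 1 to 4. The groups overlapped (log2 fold change -0.09, 95% interval -0.28 to 0.11, edgeR adjusted p = 0.509). The SMARCD1 value was -0.04 without parental replicate 3, -0.06 without knockout replicate 1 and -0.05 without knockout replicate 2, and it was called in none of these. SMARCD3, the paralog best known from heart and skeletal muscle (ENSG00000082014, chromosome 7, 151238764 to 151277896, minus strand), was at 5.59, 5.22, 6.16 and 3.83 CPM in parental and 7.66, 5.61, 6.91 and 9.06 CPM in knockout replicates 1 to 4. Only knockout replicate 2 fell inside the parental range. The log2 fold change was 0.49 (SE 0.191, 95% interval 0.07 to 0.91) and missed the threshold (edgeR adjusted p = 0.0799). It passed without knockout replicate 2 (0.60, adjusted p = 0.0494), and it was 0.36 without parental replicate 4. SMARCD3 rested on 90 to 194 reads per library, for which counting alone gives a coefficient of variation of up to 10.5%, against 19.1% and 19.7% seen among parental and knockout tumours.

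Skeletal muscle markers were set beside SMARCD3. All 7 were above 0 in at least 1 library, and they summed to 3.94 to 40.6 CPM in parental and 2.44 to 15.6 CPM in knockout tumours. The parental tumour with the highest sum, replicate 2, had a SMARCD3 value below that of parental replicates 1 and 3, while knockout replicate 4 had the highest muscle sum and the highest SMARCD3 value of its group. The part of muscle RNA in SMARCD3 was not tested.

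Ratios within the SMARCD family separated the groups. SMARCD1 to SMARCD2 stood at 0.338, 0.366, 0.434 and 0.377 reads in parental replicates 1 to 4 and at 0.482, 0.477, 0.519 and 0.490 in knockout replicates 1 to 4. All knockout tumours were higher, by a mean of 0.38 on the log2 scale, or 1.303-fold. SMARCD2 to SMARCD3 stood at 25.2, 23.3, 19.7 and 32.6 in parental replicates 1 to 4 and at 11.5, 15.7, 13.5 and 10.8 in knockout replicates 1 to 4. This ratio was lower in all knockout tumours, with a mean difference of -0.96 on the log2 scale, so that SMARCD3 gained 1.94-fold on SMARCD2. SMARCD1 to SMARCD3 stood at 8.50, 8.54, 8.57 and 12.3 in parental and 5.55, 7.504, 6.99 and 5.29 in knockout replicates 1 to 4. Here, too, the groups were apart, with a mean difference of -0.58, which was -0.44 without parental replicate 4. Each of the 3 had an exact two-sided permutation p of 0.0286, the smallest possible, and 0.0381 after Benjamini-Hochberg adjustment over 4 ratios. With 4 ratios, the adjusted p falls under 0.05 only where at least 3 of them reach that smallest p. No SMARCD ratio could thus pass alone. The 3 ratios come from 3 genes and are not independent of each other, since on the log2 scale each follows from the others. They are not 3 separate results. Of all single genes tested, 29.3% separated the groups, and the same share for ratios of other gene pairs was not measured. The ratio of BCL7A to BCL7C, given above without a test, was also apart between groups. Taken as a set, the ratios thus separated SMARCD2 from SMARCD1, and SMARCD3 from both, while the gene-wise test called only SMARCD2. In the edgeR fit the log2 fold change was -0.09 for SMARCD1 and -0.47 for SMARCD2. The SMARCD1 to SMARCD2 ratio is therefore not a result apart from the SMARCD2 call.

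Levels of different genes can be compared only per length, which was done as CPM per kilobase over the union of annotated exons. By this measure SMARCD2 was the highest of these genes in both groups, at 34.1 ± 2.45 CPM per kilobase in parental and 24.6 ± 1.197 in the knockout (SD, n = 4 each). SMARCC1 came next with 27.3 ± 3.56 and 20.8 ± 1.47. ACTL6A (18.3 ± 3.36) stood before SMARCC2 (15.7 ± 1.76) in parental tumours and after it in knockout tumours (13.8 ± 1.198 against 15.03 ± 0.754), with overlapping ranges both times. SMARCD1 came next in both groups, at 9.35 ± 0.668 and 8.80 ± 0.649. SMARCB1 and BCL7A followed, at 4.61 ± 0.146 and 4.17 ± 0.220 in parental tumours, where their ranges were apart, and at 3.95 ± 0.215 and 4.45 ± 0.294 in knockout tumours, where they overlapped. SMARCD3 was low in both groups (1.00 ± 0.191 and 1.41 ± 0.277). SMARCE1 was left out of this order, for the reason given above. The place of SMARCB1 carries a like limit, since DERL3 exons cover 56.1% of its longest principal transcript and the strand setting is not given. The union for SMARCB1 spans 16525 bases, over 3 times its longest transcript of 5210 bases. With that shorter length SMARCB1 stood just before SMARCD1 with overlapping ranges, and ACTL6A stood before SMARCC1 in both groups, also with overlap. By longest transcript, SMARCC2 stood above SMARCC1 in the knockout without overlap (30.1 ± 1.51 against 25.0 ± 1.76 CPM per kilobase, SD, n = 4 each), the reverse of the order over the union of exons. By principal transcript, the knockout ranges of SMARCD2 (33.8 ± 1.65) and SMARCC2 (31.6 ± 1.58) overlapped. Those of SMARCD1 (12.4 ± 0.911) and BCL7A (11.3 ± 0.747) did so too.

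SMARCD2 made up most of the SMARCD transcripts per kilobase, 76.7% ± 1.91 of them in the parental and 70.7% ± 0.840 in the knockout group (SD, n = 4 each). SMARCD1 made up 21.1% ± 1.70 and 25.3% ± 0.740, and SMARCD3 2.25% ± 0.414 and 4.02% ± 0.638. SMARCD2 thus remained the main paralog in every tumour while its share was lower in the knockout. SMARCD1 itself did not rise (log2 fold change -0.09), so its larger share is not a result apart from the SMARCD2 call. The family sum was 42.3 to 48.1 CPM per kilobase over parental and 32.9 to 37.2 over knockout tumours, on average 78.3% of the parental level, without overlap between the groups. Most of this sum is SMARCD2, so it is not a result apart from the SMARCD2 call. In the SMARCC family, SMARCC1 made up 63.2% ± 5.41 in parental and 58.1% ± 2.86 in knockout tumours, with overlap. Which of the SMARCC genes was the main one depended on the length used: with the longest transcript the share of SMARCC1 was 50.9% and 45.4%. The SMARCC sum was 41.8 to 45.7 and 35.2 to 37.0 CPM per kilobase, on average 83.5% of the parental level.

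**Figure D3:**
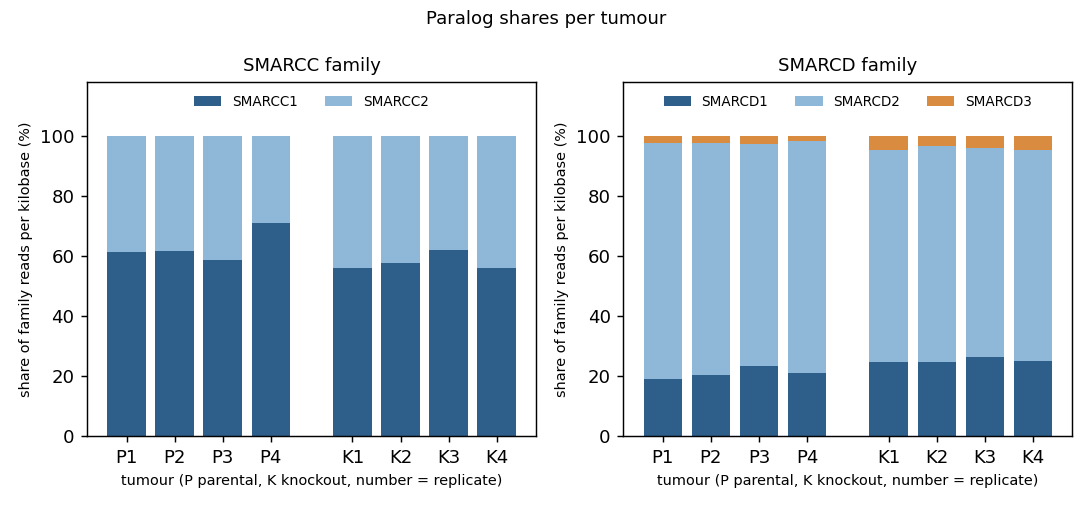
Share of each paralog in its family's reads per kilobase of exon (vertical axis, percent) in each of 4 parental (P) and 4 knockout (K) tumours. SMARCD2 is the largest part of the SMARCD family in every tumour, and the SMARCD1 and SMARCD3 parts are larger in the knockout tumours.

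Other subunits were compared from a list of 20 genes, of which 19 could be tested. By edgeR's adjusted p under 0.05, 2 rose and 2 fell in the knockout, or 21.1%, against 27.0% of all genes tested, and their median log2 fold change was -0.01. The alternative ATPase gene SMARCA2 rose (log2 fold change 0.32, SE 0.0936, adjusted p = 0.0261), as did PHF10, a subunit of PBAF (0.37, SE 0.0827, adjusted p = 0.00661). DPF2, which takes in BAF the position that PHF10 takes in PBAF, fell from 50.4 ± 4.02 to 35.5 ± 2.28 CPM (SD, n = 4 each; log2 fold change -0.51, adjusted p = 0.0016). BCL11A, a transcription factor found with BAF, fell from 19.01 ± 1.88 to 9.31 ± 0.766 CPM (log2 fold change -1.03, adjusted p = 6.74e-05), more than any of the 9 core and accessory genes. The call for SMARCA2 was lost in 6 of the 8 fits that left out 1 tumour (adjusted p of up to 0.0789), those without parental replicates 1, 3 or 4 or knockout replicates 1, 2 or 3, and without a filter on low counts (0.0601). SS18L1 had a log2 fold change of 0.26 (95% interval 0.02 to 0.50, adjusted p = 0.103).

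**Figure D4:**
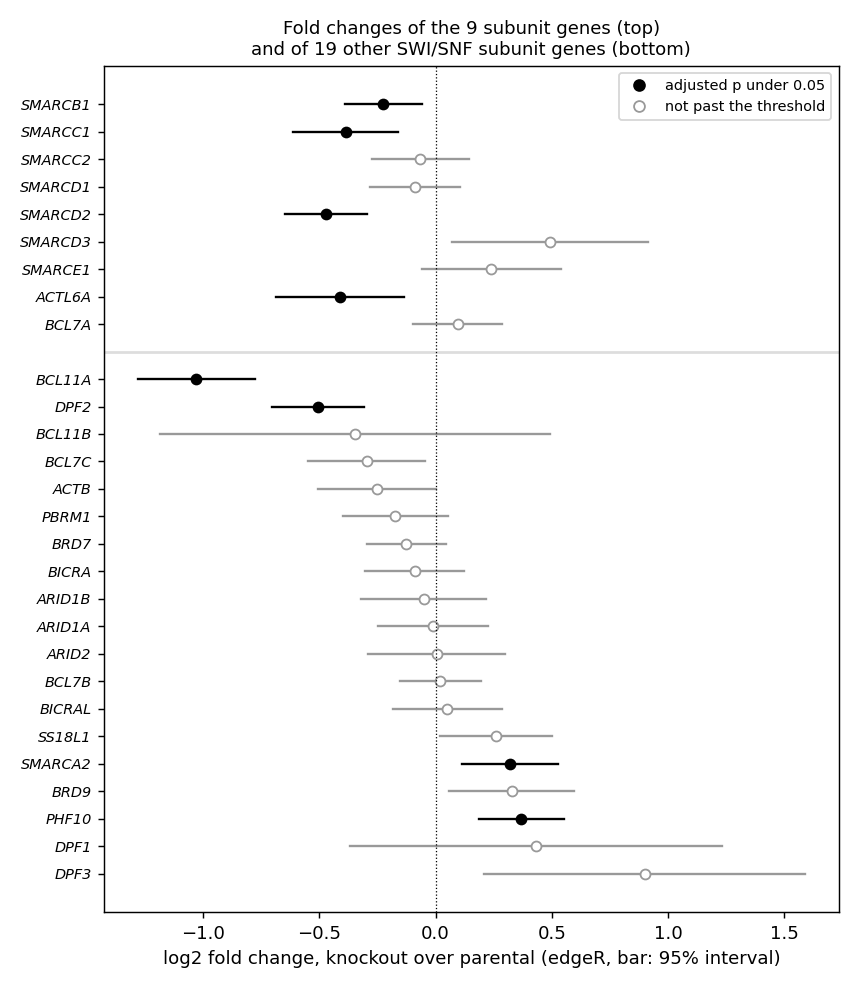
Log2 fold change of knockout over parental tumours (horizontal axis) with its 95% interval for the 9 subunit genes (upper block) and 19 other subunit genes (lower block, in order of fold change); filled black points had an edgeR adjusted p under 0.05. SMARCD2 is the lowest of the upper block at -0.47, and BCL11A is the lowest of the lower block at -1.03.

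For each called gene, the 2 genes whose log2 CPM followed it most closely over the 8 tumours were taken from 13053 candidates (mean log2 CPM not below 1). Since the groups differ, these correlations hold the difference between groups as well as that among tumours, and they are descriptions without a test. SMARCD2 was followed by AP000924.1 (Pearson r = 0.988) and FLRT2 (0.986), whose log2 fold changes of -1.45 and -3.38 were several times its own. SMARCC1 was followed by KDM1A (0.986), a histone demethylase, and EMC2 (0.982). ACTL6A was followed by TTC1 (0.991) and ABHD10 (0.990), and SMARCB1 by KLHL13 (0.985) and CELSR2 (0.978).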

How the data were processed

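RNA of 4 parental and 4 SMARCA4 knockout H2122 xenografts was compared; groups and replicate numbers came from the sample titles (that of parental replicate 4 also holds a different tumour number). The authors deposited raw counts for each gene symbol, made with TopHat2 2.1.1, HTSeq 0.11.0 and build hg38 per the submitters' processing notes; counting mode, strand setting, annotation release and any removal of host reads are not given in the sources used here. Host reads may therefore be among the counts. The 5 summary lines per file (14.8% to 20.9% of reads) stayed out of library sizes. No 2 libraries agreed within sampling noise (lowest chi-square per degree of freedom 5.73).

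Genes were filtered by filterByExpr (minimum count 10, minimum total 15), scaled by TMM and tested by the quasi-likelihood F-test in edgeR 4.0.16 (R 4.3.3), adjusted by Benjamini-Hochberg over all 16219 genes; SE is the log2 fold change divided by the square root of F. The script was tested on simulated data. Paralog ratios used a pseudocount of 0.5 reads and an exact two-sided permutation test. Exon lengths, positions and shared words came from GENCODE 29 on GRCh38, promoter windows from RefSeq. Other fits used DESeq2 1.42.0, limma-voom (limma 3.58.1), other scalings and filters, the replicate number as a block, and 7 tumours at a time. The genes named are all 9 genes found, SMARCA4, other subunits past the threshold or paralogous to one of the 10 listed genes, and the 2 closest followers of each called gene. BCL7 ratios are values without a test, as is SMARCE1's overlap with AC073508.2, described after its values were seen. The genes and lists were chosen with earlier results of these data known.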

Additional observations from a re-analysis of the deposited data

Results flagged for a closer look

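Dixon's test for a single extreme value was applied to the 4 tumours of each group for the genes and ratios named above, 42 sets in all. Chance alone marks about 5% of such sets, and 3 were marked. SMARCD2 in parental replicate 1, at 141 CPM, lay far from the other parental tumours at 122 to 125 CPM; the SMARCD2 fold change without that tumour was -0.43 and still called. PHF10 in knockout replicate 2, at 92.0 CPM, lay far from 78.0 to 80.01 CPM in the other knockout tumours. The ratio of SMARCD1 to SMARCD3 reads in parental replicate 4, at 12.3, lay far from 8.50 to 8.57 in the other parental tumours, and the log2 difference between groups was -0.44 without it, against -0.58 with it.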

How the results depend on the processing

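Over 16 other fits the number of genes called was 3501 to 5019, with 1644 to 2383 higher and 1857 to 2825 lower. The number called among the 9 subunit genes was 3 or 4 with all 8 tumours and 1 to 3 when 1 tumour was left out. No gene of the 9 changed direction in any of the 16. SMARCC2, SMARCD1, SMARCE1 and BCL7A were called in none of them. The number called among the other subunits was 3 to 5. Same-numbered tumours did not deviate together from their group means (correlations -0.28 to 0.12 over genes, against -0.28 to 0.32 for other pairs). A pairing by number was thus not seen, although 4 tumours per group cannot exclude a weak one. With the replicate number as a block, 3871 genes were called and, of the 9, SMARCC1, SMARCD2 and ACTL6A, while SMARCB1 was not (adjusted p = 0.0945).

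Leaving out 1 tumour moved the log2 differences in ratio to between 0.33 and 0.45 for SMARCD1 to SMARCD2, -0.66 and -0.44 for SMARCD1 to SMARCD3, and -1.07 and -0.83 for SMARCD2 to SMARCD3, and to between -0.42 and -0.15 for SMARCC1 to SMARCC2. With 3 tumours against 4 the smallest exact p is 0.0571, so these tests could not pass. The same holds for the replicate block, with sign flips over 4 pairs: the differences were 0.38, -0.58 and -0.96 for the SMARCD ratios in the same order, each with the smallest possible p of 0.125 (0.167 adjusted). Pseudocounts of 1 and 5 changed no call.

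The shares per length moved with the length used. With the longest transcript and with the principal transcript (added after the data were seen), respectively, SMARCC1 made up 50.9% and 49.7% of its family in parental and 45.4% and 44.2% in knockout tumours. SMARCD2 made up 68.8% and 67.9% in knockout tumours, and SMARCD3 3.46% and 4.12% in parental and 6.13% and 7.24% in knockout tumours. For BCL7B the sign turned in 3 fits (-0.0015 without a filter on low counts, -0.00016 without parental replicate 1 and -0.011 without parental replicate 2), and leaving out 1 tumour gave up to 0.053. Depth limits SMARCD3 and SMARCE1 most among the 9, with as few as 90 and 159 reads in a library.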
